A study of Mus musculus with 8 samples.

Results

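Nicotinic acetylcholine receptors are pentameric cation channels opened by acetylcholine, and by nicotine, and each is assembled from the products of several subunit genes. The 8 subunit genes described here were taken by name and found by their Ensembl identifiers: Chrna3, Chrna4, Chrna5, Chrna6, Chrna7, Chrnb2, Chrnb3 and Chrnb4. They are 8 of the 38924 genes in each count table. The 5 alpha genes carry the principal face of the acetylcholine site, apart from Chrna5, whose product is known as an accessory subunit, and the products of Chrnb2 and Chrnb4 complete that site in mixed receptors. Receptors of the alpha4 and beta2 subunits form the common high-affinity site of the brain, alpha7 forms receptors of 1 kind of subunit, alpha3 with beta4 is typical of autonomic ganglia and the medial habenula, and alpha6, often with beta3, marks midbrain dopamine neurons, where it takes part in dopamine release.

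The study sequenced ribosome-bound RNA of mouse neurons, with 6 libraries from dopamine neurons of the midbrain and 2 from serotonin neurons of the hindbrain. It was obtained by bacTRAP, a method in which a transgene under a chosen promoter tags the ribosomes of a cell type. The dopamine libraries were 2 named datL, 2 named datM, 1 named Lateral and 1 named Medial. Per the series' design text the tag was driven by the dopamine transporter gene Slc6a3 or the serotonin transporter gene Slc6a4, although the description of every library, serotonin included, names the Slc6a3 line JD1640. Neither the strain background nor what the letters L and M stand for is given. Dissection took place at embryonic day 15, per the labels, and tissue called E18 was kept 3 further days in culture. The same protocol text stands on all 8 libraries, but the file headers carry an E18 mark for Lateral and Medial only. The labels do not say whether libraries of a group came from separate animals or pools, so the p-values rest on a spread among libraries that may be technical. A pull-down of this kind gives no count of cells, so fewer tagged cells and less RNA in each cannot be told apart.

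Library totals ran from 22417739 to 33216710 counts. Per the file headers, datL and datM came from an October run, and serotonin, Lateral and Medial from lane 8 of another run. The October libraries detected 11708 to 12509 genes and the lane 8 libraries 13703 to 15656. Many genes were counted in only 1 library of a pair: of the genes with at least 100 counts in either library, 12.3% stood at 0 in the other library of the datL pair, 11.8% in the datM pair, 5.10% between Lateral and Medial, and 1.06% in the serotonin pair. A 0 in a datL or datM library was thus common even for genes well counted in its pair. Slc6a3 had 868 to 24565 counts in the dopamine libraries and 20 and 5 in the serotonin libraries. Slc6a4 had 175 counts in Lateral, 88 in Medial and 0 in all 4 datL and datM libraries, against 35240 and 31341 in the serotonin libraries, so the lane 8 dopamine libraries held a small amount of a defining serotonin transcript. In datL replicate 1 the vesicular monoamine transporter Slc18a2, a further dopamine marker, was at 0.

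A pair of adjacent cysteines in the acetylcholine-binding loop is what defines a subunit as alpha, and the stretch that codes for it is given for the 5 alpha genes because it separates the family's roles. The sequences are 30 bases each, from GENCODE transcripts on GRCm38, 5′ to 3′ on the coding strand, with the cysteine codons in capitals.
Chrna3, chr9:55015842-55015871, minus strand: atcaagtacaacTGCTGTgaggagatctac
Chrna6, chr8:27407167-27407196, minus strand: atcaagtacaacTGCTGTgaagagatttac
Chrna4, chr2:181029266-181029295, minus strand: aggaagtatgaaTGCTGTgccgagatctat
Chrna7, chr7:63106146-63106175, minus strand: aagttctatgaaTGCTGCaaagagccatac
Chrna5, chr9:55004605-55004634, plus strand: cggacggacagcTGCTGCtggtacccctgc
Each stretch lies within 1 coding exon: exon 7 of Chrna7 and exon 5 of the others. Chrna3 and Chrna6 share 28 of the 30 bases, Chrna3 and Chrna4 share 22, and Chrna5 shares 13 to 16 with any of the others. A tyrosine, any residue and then the cysteine pair was found in the longest annotated protein of 4 of the 5 alpha genes and of none of the 3 beta genes. Chrna5 is the alpha gene without that tyrosine. Of the beta genes, Chrnb2 has adjacent cysteines at codons 646 and 647 of its longest transcript, without the tyrosine and in an exon outside the gene's bounds in the deposited tables, while the alpha pairs lie between codons 212 and 235. The same pattern occurs in 249 of 21581 coding genes (1.15%), so the match describes these genes and is not particular to receptors.

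The 8 genes lie at 5 places in the genome (mm10, coordinates of the deposited tables). Chrna5 (chromosome 9, 54980880 to 55007779, plus strand), Chrna3 (55011343 to 55026559, minus strand) and Chrnb4 (55028156 to 55048544, minus strand) form a cluster, with gaps of 3564 bases between Chrna5 and Chrna3 and of 1597 bases between Chrna3 and Chrnb4. Chrnb3 (chromosome 8, 27368711 to 27399729, plus strand) and Chrna6 (27403214 to 27413944, minus strand) are 3485 bases apart. Chrna4 (chromosome 2, 181018380 to 181043546), Chrnb2 (chromosome 3, 89753448 to 89764632) and Chrna7 (chromosome 7, 63098692 to 63212526) stand apart, all on the minus strand. Reads were counted without strand, and none of the 8 genes shares an exonic base with a neighbour. Adar, on the opposite strand, lies 2 bases from Chrnb2 and had 1155 to 6408 counts per library. Its part in the Chrnb2 counts was not tested.

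Chrna4, Chrnb2 and Chrna6 were counted in all 8 libraries, Chrna3 in 6, Chrnb3 in 5, and Chrna5, Chrna7 and Chrnb4 in few libraries at low levels. In CPM, counts scaled to the library total, Chrna4 was high in datL, Lateral and serotonin and low in datM and Medial. Chrna6 was high in datM, Medial and Lateral and low in datL and serotonin. Chrna3 was high in Lateral and Medial, at an intermediate level in serotonin, and nearly uncounted in datL and datM. None of the 8 genes passed the threshold of an adjusted p of 0.05 with edgeR's quasi-likelihood test in any comparison fitted with all its libraries, so the differences below are described by their values.

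**Figure D1:**
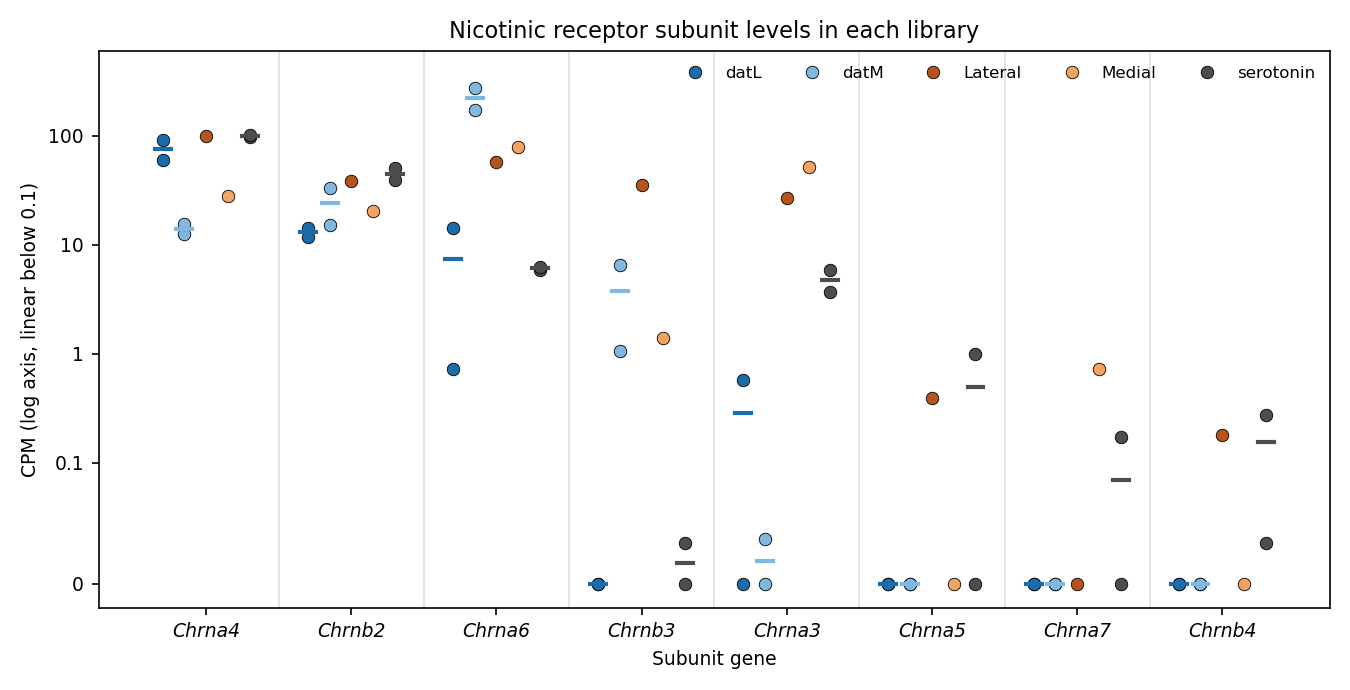
CPM (log axis, linear below 0.1) of the 8 subunit genes in each library; each point is 1 library, bars are means of groups with 2 libraries, and colours are groups. Chrna6 stands at 173 and 271 CPM in datM and at 14.1 and 0.725 CPM in datL, while Chrna4 is at 12.6 and 15.4 CPM in datM and at 60.1 and 91.6 CPM in datL.

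The balance among the genes was compared within each library in TPM, computed from the deposited counts and exon lengths so that genes of different length can be set side by side. Chrna4 made up 61.4% and 88.3% of the summed TPM of the 8 genes in the datL libraries and 3.7% and 3.1% in the datM libraries. Chrna6 made up 24.5% and 1.2% in datL and 87.0% and 92.7% in datM. In Lateral the 2 genes were level, with 31.6% for Chrna4 and 31.4% for Chrna6. In Medial they made up 10.6% and 50.4%. In the serotonin libraries Chrna4 made up 63.0% and 61.5%, and Chrna6 6.4% and 6.5%. Chrna4 and Chrnb2 together held 74.6% and 98.8% in datL, 12.7% and 5.90% in datM, 42.8% in Lateral, 17.6% in Medial, and 86.4% and 89.5% in serotonin.

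**Figure D2:**
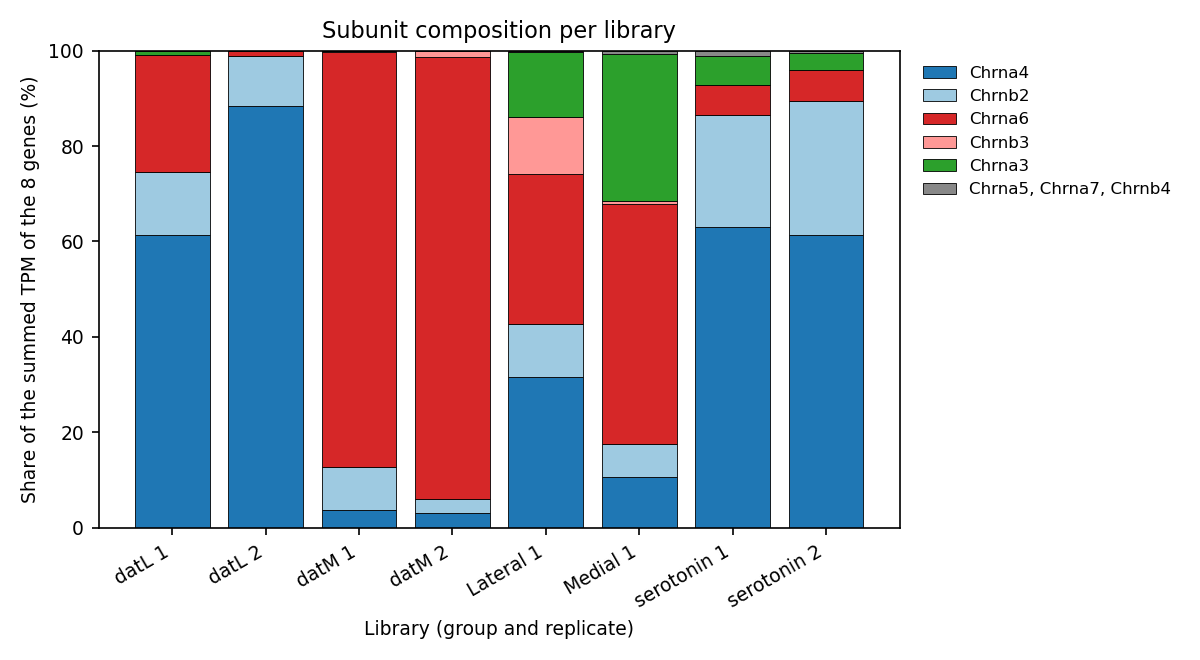
Share (%) of the summed TPM of the 8 genes taken by each gene, 1 bar per library. Chrna4 and Chrnb2 take most of the datL and serotonin bars, Chrna6 takes most of the datM bars, and Chrna3 is visible mainly in Lateral and Medial.

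The ratio of Chrna6 TPM to Chrna4 TPM was 0.399 and 0.0135 in datL, 23.5 and 30.01 in datM, 0.993 in Lateral, 4.76 in Medial, and 0.102 and 0.105 in serotonin. The datM ratios were the highest and did not overlap any other group. The datL pair differed by more than the gap between either library and serotonin. The number of the 8 genes with at least 1 count was 4 and 3 in datL, 5 and 4 in datM, 7 in Lateral, 6 in Medial, and 7 and 6 in serotonin.

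Dopamine was first compared with serotonin over all libraries. All datL and datM libraries came from the October run, while both serotonin libraries came from the other run, with Lateral and Medial. Run and neuron type are thus partly mixed in this comparison, and their effects cannot be fully told apart. Chrna6 averaged higher in dopamine neurons, and Chrna4 and Chrnb2 averaged lower. Chrna3 and Chrnb3 were high in some dopamine libraries and at or near 0 in others. Of 13806 genes tested, 0 (0%) passed the adjusted threshold, 648 (4.69%) had an unadjusted p under 0.05, DESeq2 called 133, and limma-voom called 14. Of the 6 subunit genes tested, 1 had an unadjusted p under 0.05. Chrna7 and Chrnb4 did not pass the filter on low counts.

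The alpha genes are taken first. Chrna6 had 14.1 and 0.725 CPM in datL, 173 and 271 CPM in datM, 57.4 CPM in Lateral and 78.8 CPM in Medial, against 5.84 and 6.24 CPM in serotonin. It averaged 99.2 ± 104 CPM in dopamine neurons (SD, n = 6) and 6.04 ± 0.287 CPM in serotonin neurons (SD, n = 2). Of the 6 dopamine libraries, only datL replicate 2 was below the serotonin libraries. The log2 fold change was 4.16 ± 1.70 (SE), with an unadjusted p of 0.0315 and an adjusted p of 0.993 by edgeR.

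Chrna4 had 60.1 and 91.6 CPM in datL, 12.6 and 15.4 CPM in datM, 98.4 CPM in Lateral and 28.1 CPM in Medial, against 97.4 and 101 CPM in serotonin. In these values Lateral lay between the serotonin libraries and the other 5 dopamine libraries lay below both. The mean was 51.0 ± 38.1 CPM in dopamine neurons (SD, n = 6) and 99.1 ± 2.41 CPM in serotonin neurons (SD, n = 2). The log2 fold change was -0.81 ± 0.82 (SE). The order depended on the scaling. With TMM scaling, Lateral and datL replicate 2 were at 97.6 CPM each, above the serotonin libraries at 94.7 and 96.5 CPM.

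Chrna3 had 0.573 and 0 CPM in datL, 0.0367 and 0 CPM in datM, 26.6 CPM in Lateral and 51.9 CPM in Medial, against 5.80 and 3.70 CPM in serotonin. The 4 October libraries lay below the serotonin pair and the 2 lane 8 dopamine libraries above it. The log2 fold change of 1.45 ± 2.98 (SE) changed sign with the libraries used: it was -4.69 with datL and datM alone against serotonin.

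Chrnb2, the beta gene that pairs with alpha4 and alpha6, had 14.1 and 11.8 CPM in datL, 33.2 and 15.2 CPM in datM, 38.1 CPM in Lateral and 20.3 CPM in Medial, against 39.5 and 50.1 CPM in serotonin. All 6 dopamine libraries were below both serotonin libraries, as for 8.59% of all genes tested, while 3.06% were higher in all 6. Lateral and serotonin replicate 1 were within counting error, with 95% Poisson intervals of 36.0 to 40.2 CPM in Lateral and 37.3 to 41.8 CPM in serotonin. The log2 fold change was -0.90 ± 0.91 (SE).

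Chrnb3, an accessory subunit of alpha6 receptors, had 0 counts in both datL libraries, 29 and 156 in datM, 1158 in Lateral and 31 in Medial, against 1 and 0 in serotonin. In CPM it was 1.06 and 6.49 in datM, 34.9 in Lateral and 1.38 in Medial. The pooled CPM in dopamine neurons was 517 times that in serotonin neurons, with a 95% counting interval of 92.6 to 20432, since serotonin rested on 1 count. Lateral held 1158 of the 1374 dopamine counts, and without it the ratio was 103 (18.3 to 4098). Without serotonin replicate 2 it was 260 (46.6 to 10271). Without serotonin replicate 1 it was 85.7 with 3 counts put in place of 0, and its 95% counting interval began at 69.6. The unadjusted p of 0.0842 by edgeR missed 0.05. Its level thus ran between 0 and 34.9 CPM among the dopamine libraries themselves.

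The 3 remaining genes were at the edge of detection. Chrna5 had 13 counts in Lateral and 0 in the other 5 dopamine libraries, against 29 and 0 in serotonin. Chrna7 had 16 counts in Medial and 0 in the other 5 dopamine libraries, against 0 and 5 in serotonin. Chrnb4 had 6 counts in Lateral and 0 in the other 5, against 1 and 8 in serotonin. A count of 0 allows a level of up to 0.0903 to 0.134 CPM, taken as 3 counts per library, and covers counting error only.

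Within lane 8, where both neuron types were sequenced together, Lateral and Medial were compared with serotonin. Chrna3, Chrna6 and Chrnb3 were above both serotonin libraries in both dopamine libraries, and Chrnb2 was below both. Chrna4 and Chrna5 overlapped. For comparison, 25% of all genes tested were higher in both and 24.6% lower in both. Of 13400 genes, 3 (0.0224%) passed the adjusted threshold and 1849 (13.8%) had an unadjusted p under 0.05. None of the 6 subunit genes tested passed, and 3 had an unadjusted p under 0.05. Since only the dopamine side of this comparison is marked E18, the effects of the mark and of neuron type cannot be told apart.

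Chrna6 averaged 68.1 ± 15.1 CPM in Lateral and Medial (SD, n = 2) and 6.04 ± 0.287 CPM in serotonin (SD, n = 2). Its log2 fold change was 3.40 ± 0.53 (SE), with an edgeR adjusted p of 0.272. Chrna3 averaged 39.3 ± 17.9 CPM in Lateral and Medial and 4.75 ± 1.48 CPM in serotonin (SD, n = 2 each). Its log2 fold change was 2.94 ± 0.77 (SE), with an edgeR adjusted p of 0.286. Chrnb3 averaged 18.1 ± 23.7 CPM in Lateral and Medial and 0.0170 ± 0.0240 CPM in serotonin (SD, n = 2 each), with an edgeR adjusted p of 0.286. Chrnb2 averaged 29.2 ± 12.5 CPM in Lateral and Medial and 44.8 ± 7.50 CPM in serotonin (SD, n = 2 each), with a log2 fold change of -0.68 ± 0.55 (SE).

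The calls depended on the tool and on 1 library. DESeq2 called 787 genes, among them Chrna6 (adjusted p = 9.47e-07), Chrnb3 (adjusted p = 0.000293) and Chrna3 (adjusted p = 0.0049). Without Lateral, edgeR called 2453 genes, among them Chrna6 (adjusted p = 0.0247), Chrna4 (adjusted p = 0.0278) and Chrna3 (adjusted p = 0.0308), and the log2 fold change of Chrna4 was then -1.95. With Medial alone standing for dopamine, that fit assumes that it would vary as the serotonin pair does.

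Markers of other cells moved with this comparison. The summed level of the 5 radial glia and astrocyte markers was 1794 to 2674 CPM in Lateral and Medial and 604 to 760 CPM in serotonin, with all 5 counted in all 4 libraries. The 3 GABA neuron markers summed to 383 to 770 CPM in Lateral and Medial and 109 to 157 CPM in serotonin. The 6 habenula and interpeduncular markers summed to 169 to 465 CPM in Lateral and Medial and 40.1 to 42.2 CPM in serotonin. They include Nr4a2, which dopamine neurons use, and the habenula marker Gpr151 was at 0 in every library. Pou4f1, of the same list, had 857 counts in Lateral and 1401 in Medial, against 244 and 115 in serotonin. Tac1 had 18.4 CPM in Lateral and 31.8 CPM in Medial, against 9.23 and 9.91 CPM in serotonin, while Irx2 and Sstr2 overlapped. The 5 red blood cell markers summed to 102 to 237 CPM in Lateral and Medial and 26.1 to 40.7 CPM in serotonin. Dbh, the enzyme that makes noradrenaline, had 0 counts in Lateral and Medial, against 45 and 24 in serotonin. Their part in the subunit values was not tested.

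**Figure D3:**
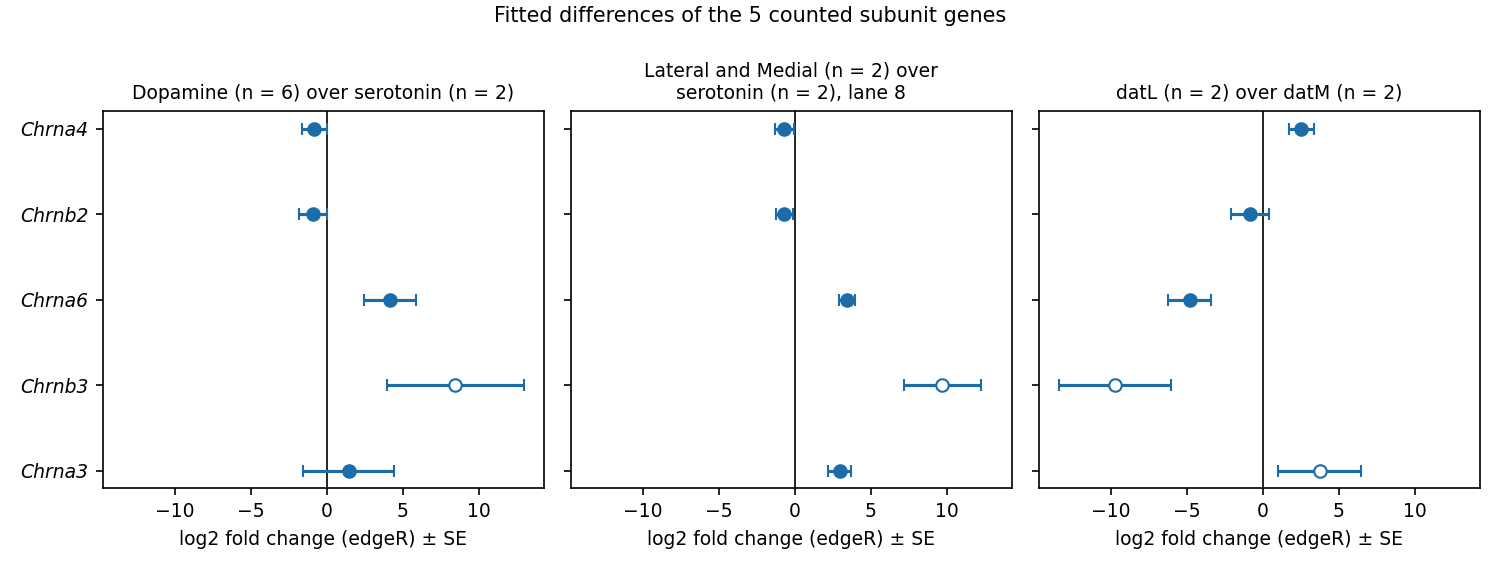
Log2 fold change (edgeR, x axis) with its standard error for 5 subunit genes in 3 comparisons; open symbols mark fits in which a group held at most 1 count. Chrna6 is at 4.16 and 3.40 for dopamine over serotonin and at -4.80 for datL over datM, and Chrna4 is at -0.81, -0.70 and 2.52.

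Among the dopamine libraries, datL and datM had opposite leading alpha genes. Chrna4 was higher in both datL libraries than in both datM libraries, and Chrna6, Chrnb2 and Chrnb3 were lower in both. In all genes tested, 11.3% were higher in both datL libraries and 13.2% lower in both. Of 15177 genes, 0 (0%) passed the adjusted threshold in edgeR and 1050 (6.92%) had an unadjusted p under 0.05, while DESeq2 called 1609 and limma-voom 243. Of the 7 subunit genes in the fit, 3 had an unadjusted p under 0.05, and DESeq2 called those 3.

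Chrna4 averaged 75.8 ± 22.3 CPM in datL and 14.0 ± 1.98 CPM in datM (SD, n = 2 each). Its log2 fold change was 2.52 ± 0.83 (SE), with an adjusted p of 0.597 by edgeR and 0.00734 by DESeq2. Chrna6 averaged 7.41 ± 9.46 CPM in datL and 222 ± 69.0 CPM in datM (SD, n = 2 each). Its log2 fold change was -4.80 ± 1.42 (SE), with an adjusted p of 0.597 by edgeR and 0.000798 by DESeq2. Across 17 settings, the log2 fold change of Chrna4 ranged between 2.17 and 2.77 and that of Chrna6 between -8.19 and -3.54.

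Chrnb3 had 0 counts in both datL libraries, against 29 and 156 in datM. With 3 counts put in place of 0 for the datL group, it was 58.8-fold lower in datL. The 95% counting interval of the ratio of datL to datM ended at 0.0211. Leaving out a datL library lowered the fold value, to 31.5 for the first replicate and 27.3 for the second. Leaving out datM replicate 1 gave 106 and leaving out datM replicate 2 gave 17.3. Chrnb2 averaged 13.0 ± 1.61 CPM in datL and 24.2 ± 12.7 CPM in datM (SD, n = 2 each), with a log2 fold change of -0.82 ± 1.24 (SE). Chrna3 had 13 and 0 counts in datL, against 1 and 0 in datM. Chrna5, Chrna7 and Chrnb4 had no count in any of the 4 libraries.

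The datL and datM libraries also differed in markers of other cells. The 8 dopamine neuron markers summed to 418 to 1090 CPM in datL and 1606 to 2084 CPM in datM. Of these 8, 2 had a positive log2 fold change for datL over datM. Slc6a3 was 1 of the 2 and overlapped, at 129 and 229 CPM in datL and 31.9 and 176 CPM in datM. The 3 GABA neuron markers summed to 308 to 551 CPM in datL and 50.2 to 131 CPM in datM. Gad1, a GABA synthesis enzyme, had 2354 and 9394 counts in datL, against 42 and 5 in datM. Of the 5 radial glia and astrocyte markers, 3 (Nes, Slc1a3 and Aldh1l1) were lower in datL at an unadjusted p under 0.05, and the summed levels overlapped, at 1715 to 3222 CPM in datL and 2305 to 3514 CPM in datM. Their part in the difference of the subunit genes was not tested.

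Chrna4 and Chrnb3 were higher in Lateral than in Medial, and Chrna3 and Chrna6 were lower. Each side is 1 library, so there is no replicate check and no test. In all genes with at least 10 counts in either library, 31.5% were more than 2-fold higher in Lateral and 23.1% more than 2-fold lower. Of the 7 subunit genes with enough counts, 3 were more than 2-fold higher and 1 was more than 2-fold lower. With TMM scaling 4 were more than 2-fold higher, as Chrnb2 passed with a log2 ratio of 1.08. Of all 14016 genes, 4762 were then more than 2-fold higher and 2809 more than 2-fold lower. Chrnb3 was at 34.9 CPM in Lateral and 1.38 CPM in Medial, a ratio of 25.2 with a 95% counting interval of 17.7 to 37.3. Chrna4 was at 98.4 CPM in Lateral and 28.1 CPM in Medial, a ratio of 3.49 (3.21 to 3.81). With 3 counts put in place of 0, Chrna5 was 2.92-fold higher in Lateral and Chrna7 was 7.90-fold lower. The 95% counting interval of the ratio began at 2.06 for Chrna5 and ended at 0.175 for Chrna7. The ratio was 1.87 (1.68 to 2.09) for Chrnb2, 0.729 (0.683 to 0.778) for Chrna6 and 0.512 (0.469 to 0.559) for Chrna3. These intervals cover counting error only.

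Chrna4 was thus higher in datL than in datM and higher in Lateral than in Medial, and Chrna6 was lower in both pairs. Chrnb2 and Chrnb3 were lower in datL than in datM but higher in Lateral than in Medial. In a fit of all 5 groups, the difference between the 2 contrasts was 1.90 ± 2.16 (SE, log2) for Chrnb2 and 14.51 ± 6.0 (SE, log2) for Chrnb3, whose fitted size depends on the prior count because datL was at 0. Neither passed the threshold, with an edgeR adjusted p of 1.00 for both genes, and 0 of 15177 genes passed while 399 had an unadjusted p under 0.05.

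Lateral and Medial, which carry the E18 mark, were also compared with datL and datM, a comparison added after the values were seen. Chrna3 was the subunit gene that separated them, at 26.6 CPM in Lateral and 51.9 CPM in Medial, against 0.573 and 0 CPM in datL and 0.0367 and 0 CPM in datM. All other subunit genes overlapped. Of 12818 genes tested, 12.5% were higher in both marked libraries than in all 4 others and 2.77% were lower. The pooled CPM of Chrna3 was 263 times higher in Lateral and Medial, with a 95% counting interval of 157 to 483. Of the 14 counts in datL and datM, 13 came from datL replicate 1, and without that library the ratio was 2852 (511 to 112684). Leaving out each other library in turn gave 190 to 372. Its log2 fold change was 7.71 ± 2.82 (SE), with an edgeR adjusted p of 0.602 and a range of 0.0793 to 1.00 over 12 settings. Of all genes, 0 (0%) passed in edgeR, 574 (4.48%) had an unadjusted p under 0.05 and DESeq2 called 40. Serotonin markers moved with this comparison: of the 5 tested, 3 were higher in Lateral and Medial at an unadjusted p under 0.05. Tph2, which makes serotonin, had 558 counts in Lateral and 930 in Medial, against 0 in both datL libraries and 1 and 0 in datM. Gata2 had 456 and 543 counts in Lateral and Medial, against 8 and 0 in datL and 0 in both datM libraries. The summed level of the 6 serotonin markers overlapped, at 255 CPM in Lateral and 167 CPM in Medial, against 423 and 79.8 CPM in datL and 37.1 and 72.3 CPM in datM. Their part in the Chrna3 values was not tested. The mark and the sequencing run coincide for these libraries and cannot be told apart.

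The order of the groups by mean CPM differed from gene to gene. For Chrna6 it ran datM, Medial, Lateral, datL, serotonin, and the datL libraries lay on both sides of the serotonin pair. For Chrna4 it ran serotonin, Lateral, datL, Medial, datM, and Lateral fell within the serotonin pair. With TMM scaling Lateral lay above that pair for Chrna4. For Chrna3 it ran Medial, Lateral, serotonin, datL, datM, with the last 2 overlapping. For Chrnb2 it ran serotonin, Lateral, datM, Medial, datL, with Medial inside the range of the datM pair. For Chrnb3 it ran Lateral, datM, Medial, serotonin, datL, with Medial inside the range of datM and the last 2 overlapping at 0.

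Genes whose profile over the 8 libraries was most like that of a subunit gene were ranked by Pearson's r of log2(CPM + 1) among 10096 genes with a mean of at least 5 CPM. The libraries share runs and depth, and among so many genes a high r with 8 points is a description only. For Chrna3 the closest were Prkcq (r = 0.989), Grm2 (r = 0.988) and Plk4 (r = 0.981). For Chrna4 they were Apaf1 (r = 0.979), Tvp23b (r = 0.973) and P4htm (r = 0.968). For Chrna6 they were Prkce (r = 0.964), Tshz1 (r = 0.946) and Copg1 (r = 0.942). For Chrnb2 they included Vdac2 (r = 0.978) and Zfp119a (r = 0.977), and for Chrnb3 they were Ncan (r = 0.935), Igsf3 (r = 0.886) and Csdc2 (r = 0.868). No subunit gene was among the closest genes of another. Chrna5, Chrna7 and Chrnb4, with means below 1 CPM, were left out of this ranking and could not appear in it.

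The genes around the receptor were read from 4 lists, and in edgeR none of their tested members passed the adjusted threshold in any of the 4 comparisons. Of the 9 genes for receptor assembly and modulation, all 9 were tested between dopamine and serotonin, 0 passed, and 3 had a positive log2 fold change, with a list median of -0.55 beside 0.26 over all genes. Ric3, a chaperone best known for alpha7 receptors, had 0 counts in all 4 datL and datM libraries, 263 in Lateral and 66 in Medial, against 305 and 122 in serotonin. It was thus counted in each of the 4 lane 8 libraries and in none of the October run, and the edgeR adjusted p for Lateral and Medial against datL and datM was 0.469. Tmem35a, a further receptor chaperone, was counted in all 8 libraries, with 256 to 1706 counts in dopamine neurons and 618 and 574 in serotonin neurons. Among the Ly6-type modulators, Lypd6 had 1164 and 1794 counts in datL, against 1 and 0 in datM, and had 23 in Lateral, 0 in Medial, and 0 and 65 in serotonin. For datL against datM its edgeR adjusted p was 0.597. Lypd6b had 6 and 78 counts in datL, 63 and 121 in datM, 208 in Lateral and 700 in Medial, against 14 and 0 in serotonin.

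Of the 6 genes for acetylcholine synthesis, transport and breakdown, 4 were tested between dopamine and serotonin and 0 passed, 2 with a positive log2 fold change, and Slc18a3 was not analysed here. Bche, butyrylcholinesterase, had 1 count in datL replicate 2 and 0 in the other 5 dopamine libraries, against 142 and 118 in serotonin. Its edgeR adjusted p was 0.327 and its unadjusted p was 0.0013. Slc5a7, the choline transporter that feeds acetylcholine synthesis, had 0 counts in both datL libraries, 44 and 0 in datM, 12 in Lateral and 0 in Medial, against 215 and 20 in serotonin. Slc44a1, a choline transporter of wide use, had 0 counts in all 4 datL and datM libraries, 70 in Lateral and 399 in Medial, against 36 and 1 in serotonin. Ache, acetylcholinesterase, had 5 and 376 counts in datL, 0 and 450 in datM, 834 in Lateral and 425 in Medial, against 437 and 251 in serotonin. Chat, which makes acetylcholine, had 741 counts in Medial and 0 in the other 5 dopamine libraries, against 0 and 2 in serotonin. Medial was thus the 1 library with an appreciable count of Chat. The motor neuron gene Mnx1 was at 0 in every library. Isl1 had 1 count in Medial, against 1571 and 3265 in datL, where Chat was at 0. The source of the Chat counts was not tested.

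Of the 5 muscarinic receptor genes, 2 were tested between dopamine and serotonin and 0 passed, with 0 positive log2 fold changes. Chrm5, the muscarinic receptor best known from dopamine neurons, had 6 and 0 counts in datL, 0 in both datM libraries, 336 in Lateral and 0 in Medial, against 0 and 118 in serotonin. Chrm2 had 19 counts in Lateral and 0 in the other 5 dopamine libraries, against 84 and 45 in serotonin. Of the 8 nicotinic subunit genes best known from muscle and hair cells or otherwise outside the 8 described here, 1 was tested and 0 passed. Chrna1, the muscle alpha gene, had 0 and 1 counts in datL, 59 and 11 in datM, and 0 in Lateral and Medial, against 8 and 94 in serotonin.

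**Figure D4:**
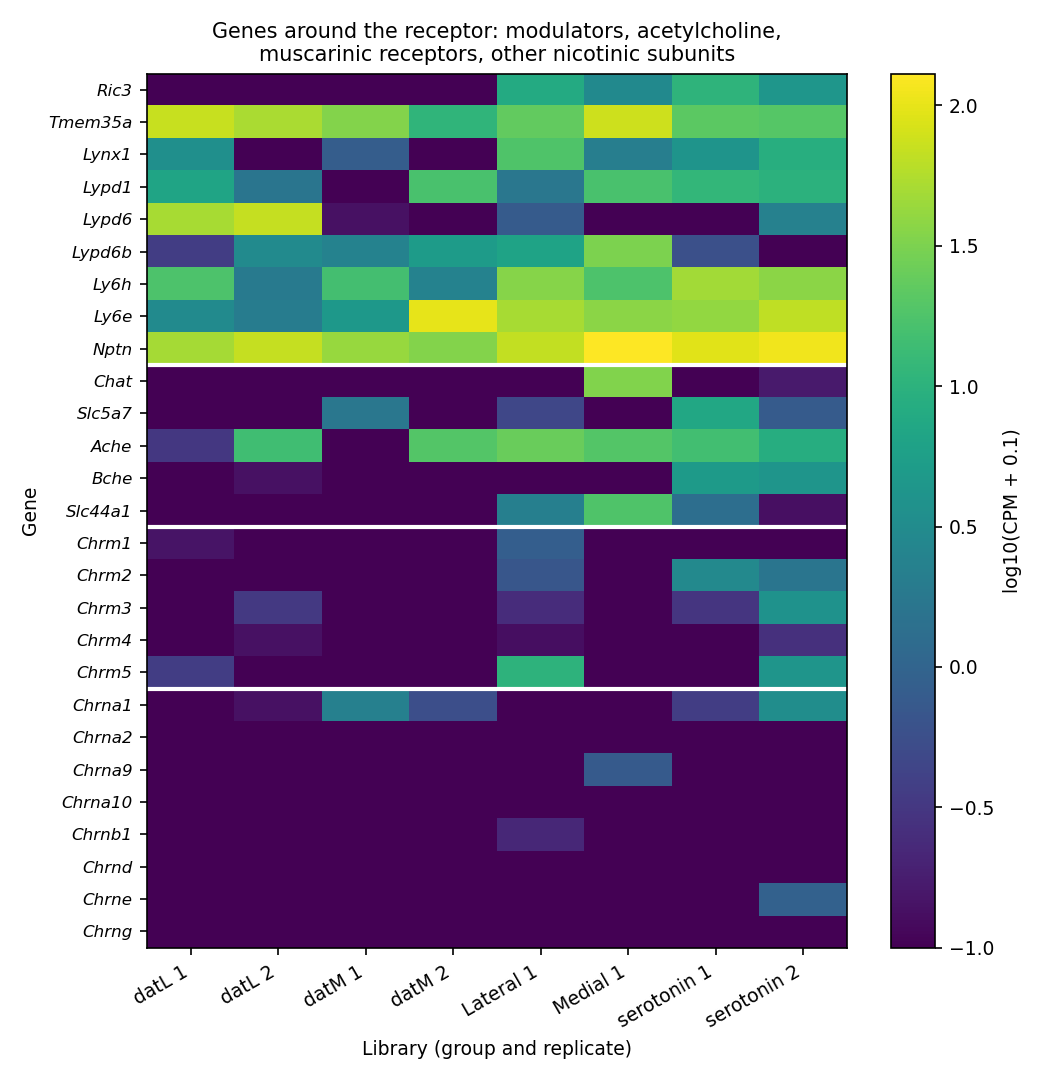
Levels, as log10(CPM + 0.1), of genes around the receptor in each library, in 4 blocks from top to bottom: assembly and modulators, acetylcholine genes, muscarinic receptors and other nicotinic subunits. Ric3 is at 0 in the 4 datL and datM libraries, Lypd6 is high in both datL libraries, Chat is high in Medial alone, and Bche is high in the serotonin pair.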

How the data were processed

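Whole-number read counts per gene were deposited as 1 table per library. Per the submitters' processing notes, reads were aligned to mm10 with STAR, and per the file headers they were counted with featureCounts 1.4.3-p1 against GENCODE vM2, without strand. Exon lengths are those the authors deposited in each table. From these, CPM (by library total) and TPM were computed, and symbols matched 37607 of 38924 identifiers. Genes were tested two-sided with edgeR 4.0.16 (quasi-likelihood, TMM, filterByExpr) in R 4.3.3, with Benjamini-Hochberg adjustment over all genes tested, at 0.05. Dopamine (6 libraries) was tested against serotonin (2), Lateral and Medial against serotonin, and datL against datM in a fit of 5 groups. Each standard error is the fold change divided by the root of the test's F value. DESeq2 1.42.0, limma 3.58.1 (voom), RLE factors, other filters, other sets of libraries, a replicate block and leaving out each library were alternatives. The tests were also run on simulated counts with a spread shared by all genes. That setting differs from these libraries, so it does not show how reliable the calls are here. Intervals are 95% and cover counting error only.

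The subunit genes and all lists were chosen with earlier results of these data known. Named were the 8 subunit genes and, by rule, up to 3 genes per list by smallest p between dopamine and serotonin and the 3 closest profiles. Ric3, Ache, Chat and single cell type markers were named after their values were seen. Some genes that the rule or the marker lists hold are not reported here.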

Additional observations from a re-analysis of the deposited data

Results flagged for a closer look

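Among the 6 dopamine libraries, 1 library stood far from the others for 4 subunit genes. Chrnb3 was at 34.9 CPM in Lateral, Chrna5 at 0.391 CPM in Lateral, Chrnb4 at 0.181 CPM in Lateral and Chrna7 at 0.714 CPM in Medial. For Chrna5, Chrna7 and Chrnb4 the other 5 libraries were at 0 and the high library held 13, 16 and 6 counts. By chance about 5% of groups show such a library, a rate that does not hold where most libraries are at 0. With the other 5 libraries at 0, any library with more than 3 counts was flagged. The flags of Chrna5, Chrna7 and Chrnb4 thus carry no information beyond those counts.

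The 2 contrasts among dopamine libraries went opposite ways for 2 genes. Lateral minus Medial against datL minus datM differed by 1.90 on the log2 scale for Chrnb2 and by 14.51 for Chrnb3. The edgeR test of this difference gave unadjusted p-values of 0.407 for Chrnb2 and 0.0505 for Chrnb3, and an adjusted p of 1.00 for both. The size for Chrnb3 depends on the prior count, because both datL libraries were at 0.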

How the results depend on the processing

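With 1 or 2 libraries per group, counts of called genes depended on the tool. Dopamine against serotonin gave 0 genes in edgeR, against 133 (DESeq2), 14 (limma-voom), 3 (at least 5 CPM in 2 libraries), 2 (fit of 5 groups), 2 (datL and datM only) and 0 to 1 when a library was left out. Lane 8 gave 3, against 787 (DESeq2), 1 (limma-voom), 7 (no filter), 5 (at least 5 CPM) and 13 to 2453 when a library was left out, with 3 subunit genes called by DESeq2 and 0 to 3 on leaving out a library. For datL against datM it was 0, against 1609 (DESeq2), 243 (limma-voom) and 0 to 6 when a library was left out, with 3 subunit genes called by DESeq2. For Lateral and Medial against datL and datM it was 0, against 40 (DESeq2). The cause was not tested.

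Of the fold changes of subunit genes under alternatives, 259 kept their direction and side of the threshold, 9 passed it newly and 9 changed sign. Chrna3 between dopamine and serotonin was -1.40 (fit of 5 groups), -4.69 (datL and datM only), -3.10 (limma-voom) and -6.18 (replicate block), and between datL and datM -2.41 to 6.10 when a library was left out, the lowest without datL replicate 1. In Lateral and Medial against datL and datM, the lowest values came without Lateral, with ranges of -0.96 to 1.02 for Chrna4, -0.12 to 0.96 for Chrnb2 and -0.65 to 5.53 for Chrnb3, and Chrna6 was 1.09 in limma-voom. Same-numbered libraries did not pair (r = 0.124 for datL and datM, 0.0395 for datL and serotonin, 0.00698 for datM and serotonin). The replicate block gave 0 genes in both comparisons, with 762 at an unadjusted p under 0.05 between dopamine and serotonin and 573 between datL and datM. No paired analysis was possible within lane 8 because the groups share 1 number. TMM scaling lowered the Medial values of Chrna3, Chrna4, Chrna6 and Chrnb2 to 45.8, 24.8, 69.5 and 17.9 CPM. It also lowered Chrna4 in serotonin to 94.7 and 96.5 CPM, below Lateral and datL replicate 2 at 97.6 CPM each. Chrna5, Chrna7 and Chrnb4 were at the edge of detection, and the part of depth in their low counts was not tested.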
